A study of Mus musculus with 6 samples.

Results

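The genes of the mouse mitochondrial genome were described in liver RNA from 3 libraries labelled with a DHT pellet and 3 labelled placebo. All rows of the deposited count tables on chromosome MT were taken, which gave 35 of 49212 genes. They were 13 mRNA genes and 22 tRNA genes, and the mitochondrial rRNA genes were not analysed here. DHT is dihydrotestosterone, a potent androgen, and a pellet under the skin releases it slowly. The labels call the DHT animals PCOS mice, after polycystic ovary syndrome, and give strain C57BL/6J and an age of 15 weeks for all 6 libraries. The title of the series asks about androgen, the hepatic clock and fatty liver. Neither sex nor dose is named, and nothing in the labels ties each library to an animal of its own, so the spread behind each p-value may be technical.

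Total counts lay between 41336844 and 60209462 per library, of which 1707436 to 4384354 fell on MT. Y-chromosome genes took 157 ± 12.1 CPM (counts scaled to a library's total) in the libraries labelled DHT and 1.70 ± 0.60 CPM in placebo (SD, n = 3 each), so carriage of a Y chromosome and the treatment cannot be told apart in any comparison below. All 10 hepatocyte markers were counted, at a summed 82956.5 to 96947.6 CPM in DHT and 91843.5 to 134924 CPM in placebo. Of the 5 adipocyte markers, 1 had enough counts to be tested, Cfd, and it was called higher in DHT. It had 270, 803 and 2475 counts in DHT 1, 2 and 3, against 3, 4 and 7 in placebo 1, 2 and 3. The defining adipocyte gene Adipoq stood at 0, 0 and 1 counts in DHT and 1, 0 and 2 in placebo. The other 8 cell type lists held no called gene, though 0 of 7 muscle markers and 1 of 6 pancreatic acinar markers could be tested.

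Mitochondrial DNA is a small circle that encodes core subunits of respiratory complexes I, III and IV and of the ATP synthase, together with the rRNA and tRNA that translate them inside the organelle. Each strand is read as a long precursor, and tRNAs that sit between the coding genes are cut out, which frees the mRNAs on either side. Hepatocytes are rich in mitochondria, which carry fatty acid oxidation, ketone body and urea synthesis there. In the tables, 26 of the 35 genes lie on the plus strand, 12 mRNA and 14 tRNA genes. The minus strand holds 9, mt-Nd6 and 8 tRNA genes.

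Sequences are shown for the tRNAs that carry the differences reported below and for the most counted ones, because their short length and their place between other genes bear on what a count there can be. Each is given 5′ to 3′ as DNA letters of the RNA-like strand, from the GENCODE M21 transcripts of build GRCm38, with the anticodon in capitals. The anticodon was located as the middle of a 7-base loop on a 5-pair stem that reads the gene's amino acid in the vertebrate mitochondrial code. The first 3 form the run between mt-Nd4 and mt-Nd5 on the plus strand (positions 11546 to 11612, 11613 to 11671 and 11671 to 11741), the next 4 the minus-strand run between mt-Nd2 and mt-Co1 (5018 to 5086, 5089 to 5159, 5192 to 5257 and 5260 to 5326), and the last pair the most counted tRNA genes, on the minus strand (14071 to 14139 and 15356 to 15422).
mt-Th, histidine: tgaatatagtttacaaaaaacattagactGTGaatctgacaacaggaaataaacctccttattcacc
mt-Ts2, serine: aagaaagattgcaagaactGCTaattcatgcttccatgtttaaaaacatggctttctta
mt-Tl2, leucine: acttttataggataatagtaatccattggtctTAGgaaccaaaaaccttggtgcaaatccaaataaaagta
mt-Ta, alanine: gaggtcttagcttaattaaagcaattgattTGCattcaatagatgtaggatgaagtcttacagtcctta
mt-Tn, asparagine: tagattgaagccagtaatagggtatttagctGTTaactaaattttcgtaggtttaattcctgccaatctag
mt-Tc, cysteine: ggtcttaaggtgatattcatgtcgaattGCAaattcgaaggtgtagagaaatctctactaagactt
mt-Ty, tyrosine: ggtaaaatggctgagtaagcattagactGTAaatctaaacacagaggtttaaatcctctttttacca
mt-Te, glutamic acid: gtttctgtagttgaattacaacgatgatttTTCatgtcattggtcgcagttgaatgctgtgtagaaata
mt-Tp, proline: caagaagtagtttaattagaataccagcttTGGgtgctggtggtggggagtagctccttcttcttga
The stem of mt-Ts2, the shortest at 59 bases, held 4 of 5 pairs. The 22 tRNA genes were 59 to 75 bases long and the reads 150 bases, per the labels, so precursors and mature molecules cannot be told apart in these counts. A read longer than a tRNA gene can also reach into the genes beside it, and how such reads were counted is not known here. The labels name the NEB Next Ultra RNA kit, and no strand setting or RNA selection step is given in the sources used here. Counts on the 9 minus-strand genes, mt-Nd6 included, therefore cannot be told apart from RNA of the opposite strand.

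Coding genes also touch each other. Of the 9 pairs of MT genes that overlap, the longest overlap is the 43 bases shared by mt-Atp8 and mt-Atp6, ATP synthase subunits read from a common mRNA (positions 7927 to 7969, plus strand). The sequence is shown because a read that covers it overlaps both genes, and how such reads were counted is not known here. It runs from the start codon of mt-Atp6 to the stop codon of mt-Atp8, both in capitals.
mt-Atp8/mt-Atp6: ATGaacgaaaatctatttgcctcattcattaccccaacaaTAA
The complex I genes mt-Nd4l and mt-Nd4 share 7 bases, given in capitals at the end of mt-Nd4l (positions 10147 to 10173, plus strand).
mt-Nd4l/mt-Nd4: caaaatctcaacctactacaATGCTAA

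The 13 mRNAs fell into 2 blocks of very different level. Levels here are CPM per kilobase, with CPM taken over all gene counts of a library. The lower block was one contiguous stretch of the map from mt-Co2 to mt-Nd4l (positions 7013 to 10173), and its highest member, mt-Nd3, lay 55.1-fold below the lowest of the other 7, mt-Nd5, in mean level. The order of the 13 levels correlated between libraries at Spearman's rho of 0.956 to 0.995 over 13 genes, a description within a shared set of genes.

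**Figure D1:**
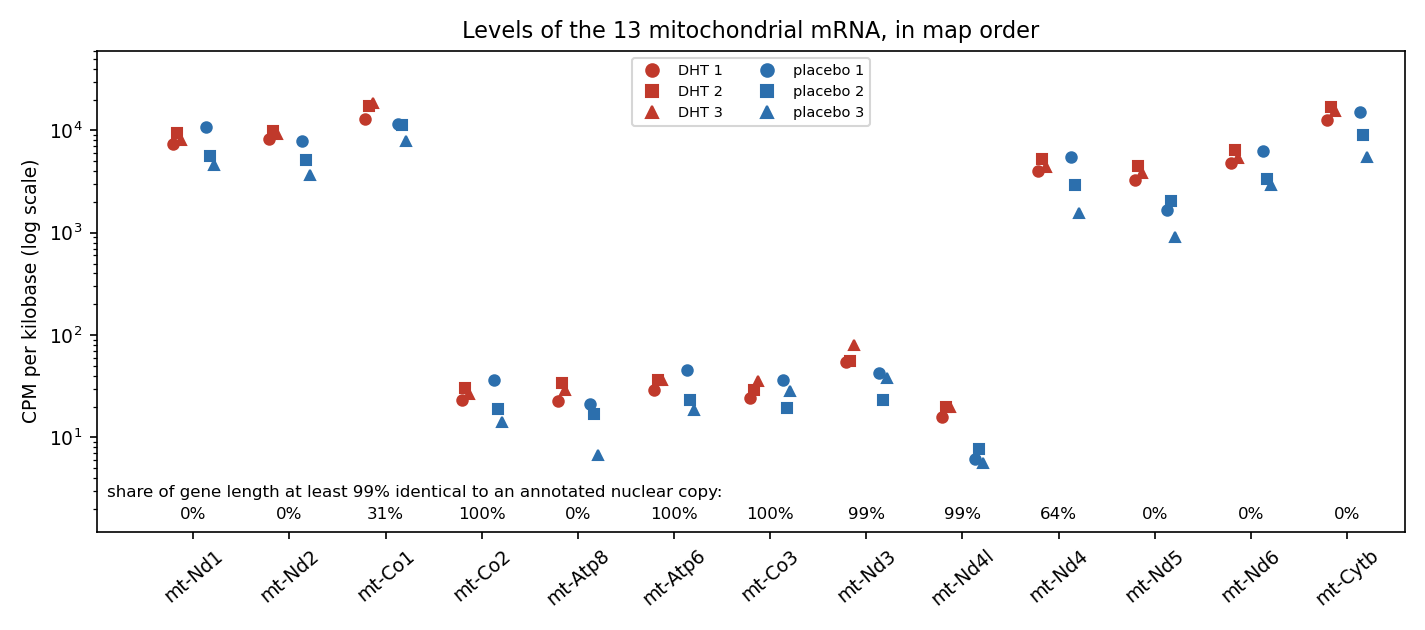
Level of each mitochondrial mRNA gene (y axis, CPM per kilobase on a log scale) in map order from left to right (x axis), with a point per library, DHT left of placebo. The percentages give the part of each gene at least 99% identical to an annotated nuclear copy. The stretch from mt-Co2 to mt-Nd4l lies between 5.67 and 80.7 CPM per kilobase in all 6 libraries, and mt-Nd5, the lowest of the other 7, between 900 and 4474.

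The stretch coincided with nuclear copies of the same sequence. Among counted nuclear genes, 16 held at least 100 bases at 90% identity or more to an MT gene by blastn, and 7 of these reached 99%. All 7 are annotated on the minus strand of chromosome 1 (24611535 to 24616197, 4663 bases), in the mirrored order of MT positions 6390 to 11042. Gm28661 matched mt-Co2 at 100% over 681 of 684 bases, Gm10925 matched mt-Atp6 at 100% over 678 of 681, and Gm28437 matched mt-Co3 at 100% over 783 of 784. Gm10222 matched mt-Nd4l at 100% over 294 of 297 bases. Gm28438 differed from mt-Nd3 by T3C alone over 345 of 348 bases, counting from 1 at the first base of the MT gene, with the MT base first. mt-Co1 and mt-Nd4 were covered in part. Gm29216 matched the last 483 of 1545 bases of mt-Co1 with A1066T, and Gm28439 matched the first 876 of 1378 bases of mt-Nd4 at 100%. Copies below 99% lay elsewhere. Gm13340 on chromosome 2 matched all 1545 bases of mt-Co1 at 97.6%, with 1887 to 3557 counts per library. Gm13341, also on chromosome 2, matched the whole of mt-Co2 at 95.9%, and mt-Co2 had 0.714 to 0.857 times its count. mt-Atp8, also low, overlapped Gm10925 only by the 43 bases it shares with mt-Atp6, and no annotated copy of its other bases was found.

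3 of the fully covered genes had about as many counts as their identical copy. The count of mt-Co2 was 0.970, 1.02 and 0.948 times that of Gm28661 in DHT 1, 2 and 3, and 0.969, 0.953 and 0.908 times in placebo 1, 2 and 3. The ratios for mt-Atp6 and mt-Co3 ran from 0.832 to 1.15 over the 6 libraries. mt-Nd4l, identical to Gm10222 over the part matched, had 1.52 to 3.42 times its count. mt-Nd3, with its single difference, had 9.68, 7.48 and 9.29 times the count of Gm28438 in DHT and 3.41, 3.98 and 3.39 times in placebo, so the groups did not overlap. By contrast the ratio was 477 to 892 for mt-Nd4 and 663 to 1288 for mt-Co1. How reads that map to several places were counted is not given in the sources used here. The levels of mt-Co2, mt-Atp8, mt-Atp6, mt-Co3, mt-Nd3 and mt-Nd4l, and the parts of mt-Co1 and mt-Nd4 inside the chromosome 1 copies, are therefore uncertain. The tRNA genes mt-Ts1, mt-Td, mt-Tk, mt-Tg and mt-Tr also lie between MT positions 6390 and 11042, so their levels are uncertain too. All 22 tRNA genes are shorter than the 100 bases the search required, so copies of any of them could not be found. Gm13339, a copy of part of mt-Nd2 at 96.7%, starts at 22590024 on chromosome 2, and Gm13340 ends at 22589647. Whether a copy of the tRNA run from mt-Tw to mt-Ty lies between them was not searched. Nor was a copy of mt-Te between Gm11408 (mt-Nd6) and Gm11410 (mt-Cytb) on chromosome 4. Whether the chromosome 1 copies set the low block was not tested.

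**Figure D2:**
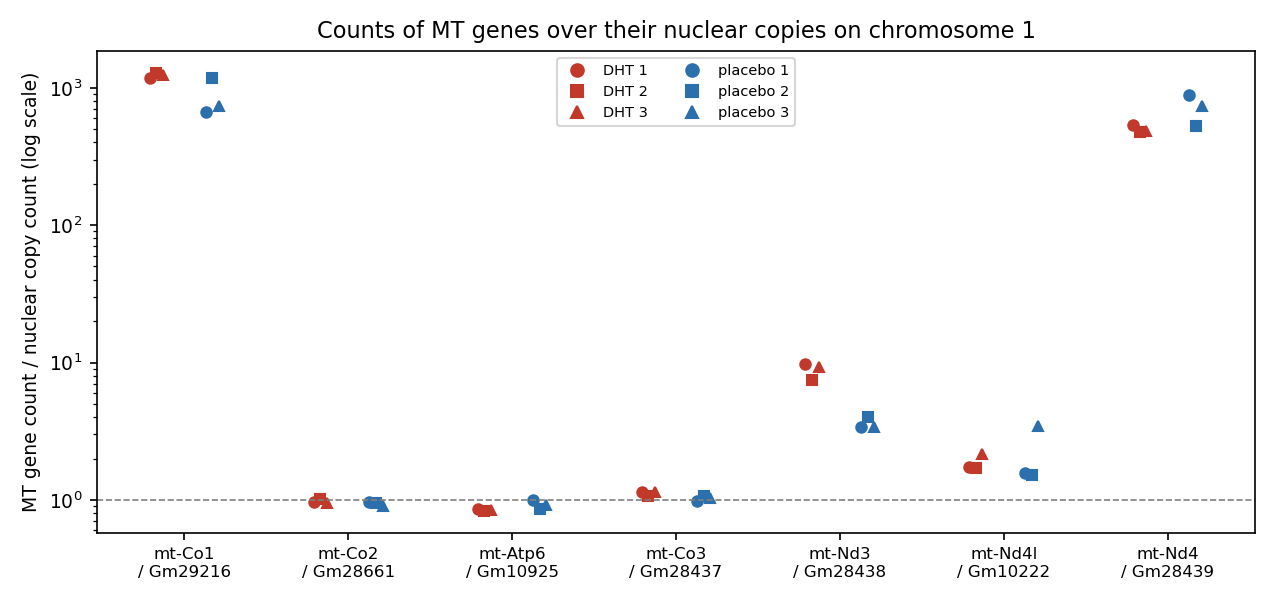
Count of each MT gene divided by the count of its nuclear copy on chromosome 1 (y axis, log scale, dashed line at 1) for the 7 pairs at least 99% identical (x axis), with a point per library, DHT left of placebo. mt-Co2, mt-Atp6 and mt-Co3 lie between 0.832 and 1.15, while mt-Co1 and mt-Nd4, covered only in part, lie at 477 or more.

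Among the 7 mRNAs of the upper block, mt-Co1 and mt-Cytb led. mt-Co1 (positions 5328 to 6872), the catalytic subunit of cytochrome c oxidase, had 12961, 17442 and 18665 CPM per kilobase in DHT 1, 2 and 3 and 11670, 11294 and 7880 in placebo 1, 2 and 3. mt-Cytb (14145 to 15288), the cytochrome b of complex III, had 12494, 17040 and 15382 in DHT and 15253, 8956 and 5473 in placebo. The groups did not overlap for mt-Co1 and overlapped for mt-Cytb through placebo 1. The level of mt-Co1 was above that of mt-Cytb in 5 of 6 libraries, and the ranges of these neighbours in the order overlapped, as did those of each later pair down to mt-Nd5. mt-Nd1 (2751 to 3707) and mt-Nd2 (3914 to 4951), membrane subunits of complex I, came next at 8261 ± 1024 and 9064 ± 786 CPM per kilobase in DHT and 6996 ± 3291 and 5553 ± 2125 in placebo (SD, n = 3 each). mt-Nd2 was above mt-Nd1 in every DHT library and below it in every placebo library. mt-Nd6 (13552 to 14070), the single minus-strand mRNA, followed at 5520 ± 790 in DHT and 4176 ± 1827 in placebo. mt-Nd4 (10167 to 11544) had 4524 ± 624 in DHT and 3336 ± 2013 in placebo. No reads were counted over parts of a gene. Had every count of mt-Nd4 come from its 502 bases outside the nuclear copy, a choice added after seeing the data, its level there would be 12420 ± 1712 CPM per kilobase in DHT and 9158 ± 5525 in placebo, an upper limit above the level of mt-Nd1. The like upper limit for mt-Co1, over the 1062 bases outside Gm29216, was 23795 ± 4369 in DHT and 14957 ± 3038 in placebo. These bases are not free of copies, as Gm13340 matched the whole gene at 97.6%.

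MT genes took a larger part of the DHT libraries on average, but the groups overlapped. Their share of all counts was 6.44%, 8.47% and 8.001% in DHT 1, 2 and 3, and 6.83%, 4.83% and 3.23% in placebo 1, 2 and 3. DHT 1 lay below placebo 1, and the other DHT libraries lay above all of placebo. The difference of 2.67 percentage points gave p = 0.2 by an exact two-sided permutation test, whose smallest possible p with 3 against 3 is 0.1. Without placebo 1 it was 3.61 points, and without placebo 3 it was 1.81 points. In bulk liver, fewer cells of a type and less RNA per cell cannot be told apart, and the same holds for the number of mitochondria and the RNA in each. The 6 listed nuclear-retained RNAs summed to 95.7, 191 and 246 CPM in DHT and 270, 41.3 and 101 CPM in placebo. These sums overlapped between the groups, and their part in the MT share was not tested.

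**Figure D3:**
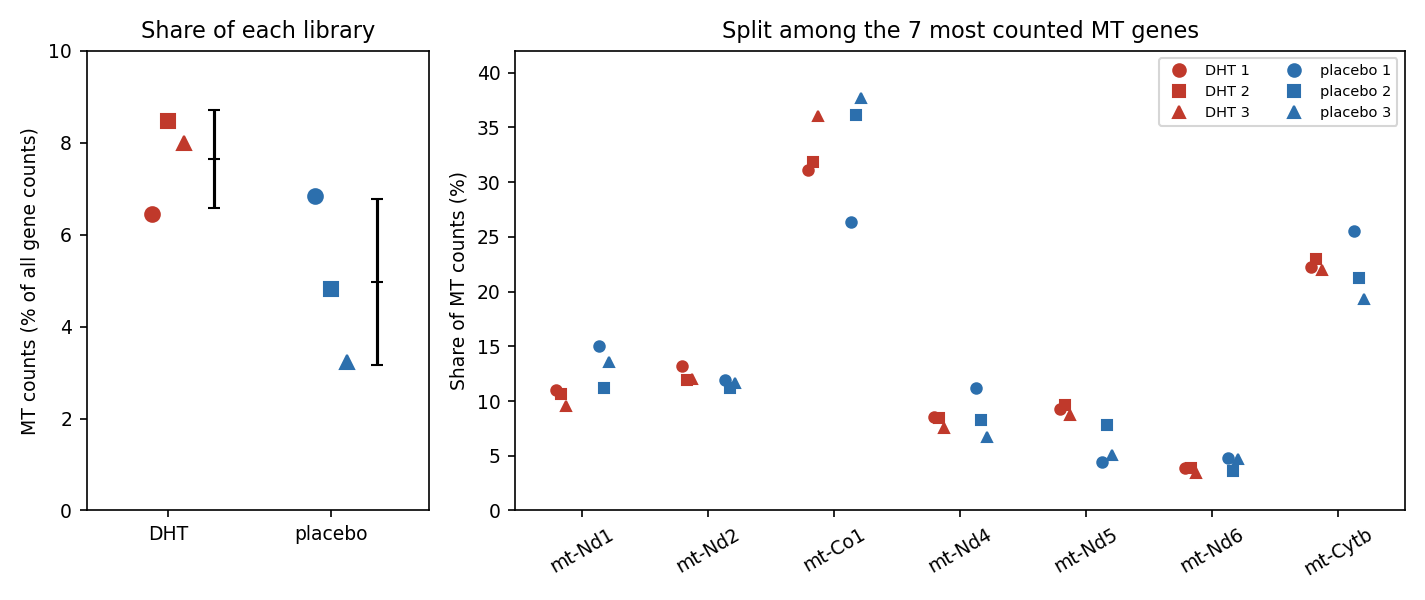
Left, the share of all gene counts that fell on MT genes (y axis, percent), a point per library with the mean and SD of 3 beside it, DHT left of placebo. Right, the share of MT counts taken by each of the 7 most counted MT genes (y axis, percent), a point per library. DHT 1 (6.44%) lies below placebo 1 (6.83%), and mt-Nd5 is higher and mt-Nd1 lower in all 3 DHT libraries than in any placebo library.

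Across the members, 1 of 33 genes tested passed the threshold in the comparison of DHT with placebo, the tRNA gene mt-Ts2, which was higher. The test was edgeR's quasi-likelihood test on TMM-scaled counts of all genes, with Benjamini-Hochberg adjusted p under 0.05, and it called 1.65% of all 15126 genes, 0.952% higher and 0.701% lower. The other 2 members, both in the span mirrored by the chromosome 1 copies, had almost no reads. mt-Tk had 0 counts in all 6 libraries, which allows up to 0.0498 to 0.0726 CPM per library at 3 counts, and mt-Td had 0, 1 and 1 counts in DHT and 0 in each placebo library. The members leaned upwards: the log2 fold change was above 0 in 28 of 33, against 48.1% of all genes, with a median of 0.48 against -0.02. Scaling by library size alone moved the median of all genes to 0.17 and that of the members to 0.67. The unadjusted p was under 0.05 in 13 of 33, all higher, against 7.40% of all genes that were higher at that p. The groups did not overlap in 15, all higher in DHT, against 12.7% of all genes. The log2 fold change was above 1 in 12 of 33, against 6.08% of all genes. The members come from shared precursors and move with the MT share of each library, so they are not independent in these counts.

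The number of members called moved in both directions with the settings, and every member called was higher. With DESeq2 size factors in edgeR and with a filter at 1 CPM, 0 were called. With the replicate number as a block, 12 of 33 members were called, against 5.44% of all genes called higher and 5.28% lower in that fit. These were mt-Nd4l, mt-Nd5 and 10 tRNA genes. Without placebo 3, whose MT share of 3.23% was the lowest, 7 were called, against 2.73% of all genes called higher. Without any one of DHT 1, DHT 2, DHT 3, placebo 1 or placebo 2, 0 were called, with 10 to 14 at an unadjusted p under 0.05. DESeq2 called 9, against 3.30% of all genes called higher by it, and limma voom called 7, against 2.43%.

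Of the 7 complex I genes 0 were called, and 2, mt-Nd5 and mt-Nd4l, passed with the replicate block, against 5.44% of all genes called higher in that fit. mt-Nd5 (11742 to 13565), a proton-pumping subunit, had 3282, 4474 and 3835 CPM per kilobase in DHT 1, 2 and 3 and 1666, 2062 and 900 in placebo 1, 2 and 3. Every DHT library was above every placebo library. Its log2 fold change (DHT minus placebo) was 1.13 ± 0.35 (SE, adjusted p = 0.178 by edgeR), and 1.204 ± 0.38 with the replicate block (adjusted p = 0.0275). mt-Nd4l (9877 to 10173), a small membrane subunit in the uncertain stretch, had 15.9, 19.98 and 19.96 CPM per kilobase in DHT and 6.10, 7.65 and 5.67 in placebo, again without overlap. Its log2 fold change was 1.33 ± 0.28 (edgeR adjusted p = 0.0659, and 0.00467 with the replicate block), and that of its copy Gm10222 was 1.32 ± 0.43 (edgeR adjusted p = 0.197). For mt-Nd3 (9459 to 9806) the log2 fold change was 0.69 ± 0.30 (edgeR adjusted p = 0.316), while its copy Gm28438 stood at -0.63 ± 0.36 (edgeR adjusted p = 0.423). The log2 fold changes of mt-Nd2 (0.52 ± 0.32), mt-Nd4 (0.26 ± 0.43), mt-Nd6 (0.22 ± 0.34) and mt-Nd1 (0.06 ± 0.35) were smaller, with edgeR adjusted p-values from 0.454 to 0.953. These values moved with single libraries: mt-Nd2 was at 0.30 without placebo 3 and 0.81 without placebo 1, and mt-Nd6 was at 0.03 and 0.59 in the same fits and at 0.12 and 0.09 without DHT 2 and placebo 2. mt-Nd4 was at 0.78 without placebo 1 and 0.16 without DHT 2, and mt-Nd1 was at 0.46 without placebo 1. Without placebo 3 the sign changed for mt-Nd4 (-0.07) and mt-Nd1 (-0.16). That of mt-Nd1 also changed without DHT 2 (-0.03) and without placebo 2 (-0.07).

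The ratio of mt-Nd5 to mt-Nd1 counts, genes near opposite ends of the plus-strand map and a pair chosen after their values were seen, was 0.844, 0.907 and 0.917 in DHT 1, 2 and 3. The placebo libraries 1, 2 and 3 had ratios of 0.295, 0.696 and 0.373. The lowest DHT value lay above the highest placebo value.

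The mRNAs of the other complexes gave no call. mt-Cytb had a log2 fold change of 0.42 ± 0.38 (edgeR adjusted p = 0.617), which was 0.13 without placebo 3 and 0.82 without placebo 1. Of the complex IV genes, mt-Co1 had 0.48 ± 0.28 (edgeR adjusted p = 0.442), and mt-Co2 (7013 to 7696), which holds the copper site that takes electrons from cytochrome c, had 0.01 ± 0.35. mt-Co3 (8607 to 9390), the remaining core subunit, was at -0.10 ± 0.29 with TMM and at 0.09 with library size alone. mt-Atp6 (7927 to 8607), which lines the proton channel of the ATP synthase, was at 0.05 ± 0.34, and mt-Atp8 (7766 to 7969), its small partner, at 0.75 ± 0.42 (edgeR adjusted p = 0.407). In mt-Atp8, placebo 3 stood apart at 6.78 CPM per kilobase, against 21.3 and 16.9 in placebo 1 and 2 and 22.8 to 34.2 in DHT. The signs of mt-Co2 and mt-Atp6 also changed between settings.

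**Figure D4:**
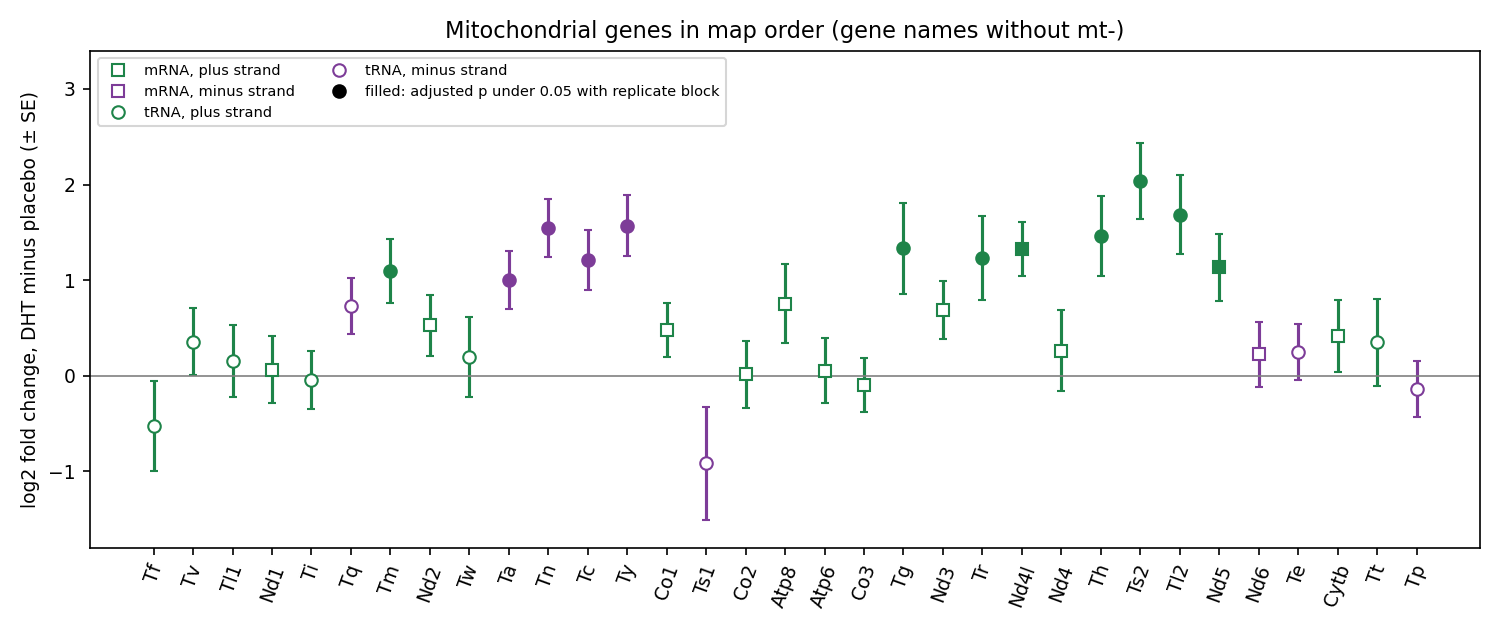
Log2 fold change, DHT minus placebo, with its SE (y axis) for the 33 MT genes tested, in map order (x axis). Squares are mRNA and circles tRNA genes, green the plus and purple the minus strand, and filled marks passed in the fit with the replicate block. The 12 filled marks all lie above 0, from mt-Ta at 1.004 to mt-Ts2 at 2.03, and mt-Ts1 is lowest at -0.92.

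Of the 20 tRNA genes tested, 1 rose and 0 fell, against 0.952% and 0.701% of all genes. At an unadjusted p under 0.05, 11 were higher, against 7.40% of all genes. In the serine tRNA gene mt-Ts2 the TMM-scaled CPM was 1.95, 1.77 and 2.37 in DHT 1, 2 and 3 and 0.568, 0.296 and 0.617 in placebo 1, 2 and 3, from 99 to 120 counts per DHT library and 15 to 33 per placebo library. The groups did not overlap, and the log2 fold change of 2.03 ± 0.40 just passed (edgeR adjusted p = 0.0494, and 0.000418 with the replicate block). Its call was lost when any one of DHT 1, 2 or 3 or placebo 1 or 2 was left out (edgeR adjusted p up to 0.177), with DESeq2 size factors in edgeR (0.0528) and with a filter at 1 CPM (0.0585). It was also lost without both libraries numbered 3 (0.0612), and was kept without placebo 3 (0.0187). The neighbours of mt-Ts2 were close to it, mt-Tl2 for leucine at 1.68 ± 0.41 and mt-Th for histidine at 1.46 ± 0.42 (edgeR adjusted p = 0.102 and 0.152, and 0.000133 and 0.00533 with the replicate block). mt-Tl2 had 5.92, 4.65 and 9.08 CPM in DHT and 1.93, 1.22 and 2.96 in placebo. The mRNA after this run is mt-Nd5 (1.13) and the one before it is mt-Nd4 (0.26). Apart from the 4 most counted tRNA genes, the tRNA genes given here with values were chosen after their values were seen.

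A similar size of difference was seen in the minus-strand run between mt-Nd2 and mt-Co1. mt-Tn, the asparagine tRNA gene, had 13.2, 13.3 and 18.3 TMM-scaled CPM in DHT 1, 2 and 3 and 4.27, 4.197 and 6.93 in placebo 1, 2 and 3. mt-Ty, the tyrosine tRNA gene, had 3.73, 3.75 and 5.57 in DHT and 1.32, 1.30 and 1.77 in placebo. DHT was higher in all libraries of both genes, at log2 fold changes of 1.54 ± 0.30 and 1.57 ± 0.32 that missed the threshold narrowly (edgeR adjusted p = 0.0517 and 0.0573, and 6.13e-05 and 0.00139 with the replicate block). mt-Tc for cysteine and mt-Ta for alanine, in the same run, had 1.21 ± 0.31 and 1.004 ± 0.30 (edgeR adjusted p = 0.118 and 0.166, and 0.00374 and 0.0433 with the replicate block). mt-Tw for tryptophan, on the plus strand directly beside this run, had 0.19 ± 0.42. The flanking mRNAs mt-Nd2 and mt-Co1 had 0.52 and 0.48. Nuclear copies of the tRNA genes in this run could not be found by the search used, so their levels may be uncertain too.

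Elsewhere the plus-strand genes mt-Tm for methionine (1.10 ± 0.33), mt-Tg for glycine (1.33 ± 0.48) and mt-Tr for arginine (1.23 ± 0.44) were called in 1 of 15 alternatives, the edgeR fit with the replicate block (adjusted p = 0.00944, 0.00637 and 0.0364). Of these, mt-Tg and mt-Tr lie in the span mirrored by the chromosome 1 copies, where levels are uncertain. The glutamine tRNA gene mt-Tq, on the minus strand, had 0.73 ± 0.29 and was called in none of 15 alternatives. By strand, 6 of the 12 tested plus-strand tRNA genes and 4 of the 8 minus-strand ones were called with the block, against 5.44% of all genes called higher. The medians of the log2 fold change were 0.73 and 0.87.

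None of the 4 most counted tRNA genes was called, with or without the replicate block. mt-Te for glutamic acid, next to mt-Nd6, had 156, 187 and 164 TMM-scaled CPM in DHT 1, 2 and 3 and 195, 102 and 130 in placebo 1, 2 and 3. mt-Tp for proline, at the end of the map, had 92.9, 98.2 and 146 in DHT and 127, 93.4 and 151 in placebo. Both overlapped, with log2 fold changes of 0.25 ± 0.30 and -0.14 ± 0.29 (edgeR adjusted p = 0.715 and 0.854). The value of mt-Te was near that of mt-Nd6 (0.22), while that of mt-Tp was below that of mt-Cytb (0.42), the nearest mRNA gene. mt-Tl1 for leucine and mt-Ti for isoleucine, on either side of mt-Nd1, had 0.15 ± 0.38 and -0.04 ± 0.30, near that of mt-Nd1 (0.06), and their signs changed in 1 and 5 of 15 alternatives. The lowest of all, mt-Ts1, the other serine tRNA gene, had -0.92 ± 0.59 from 11 to 45 counts per library (edgeR adjusted p = 0.481). This gene lies in the span mirrored by the chromosome 1 copies, so its level is uncertain.

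**Figure D5:**
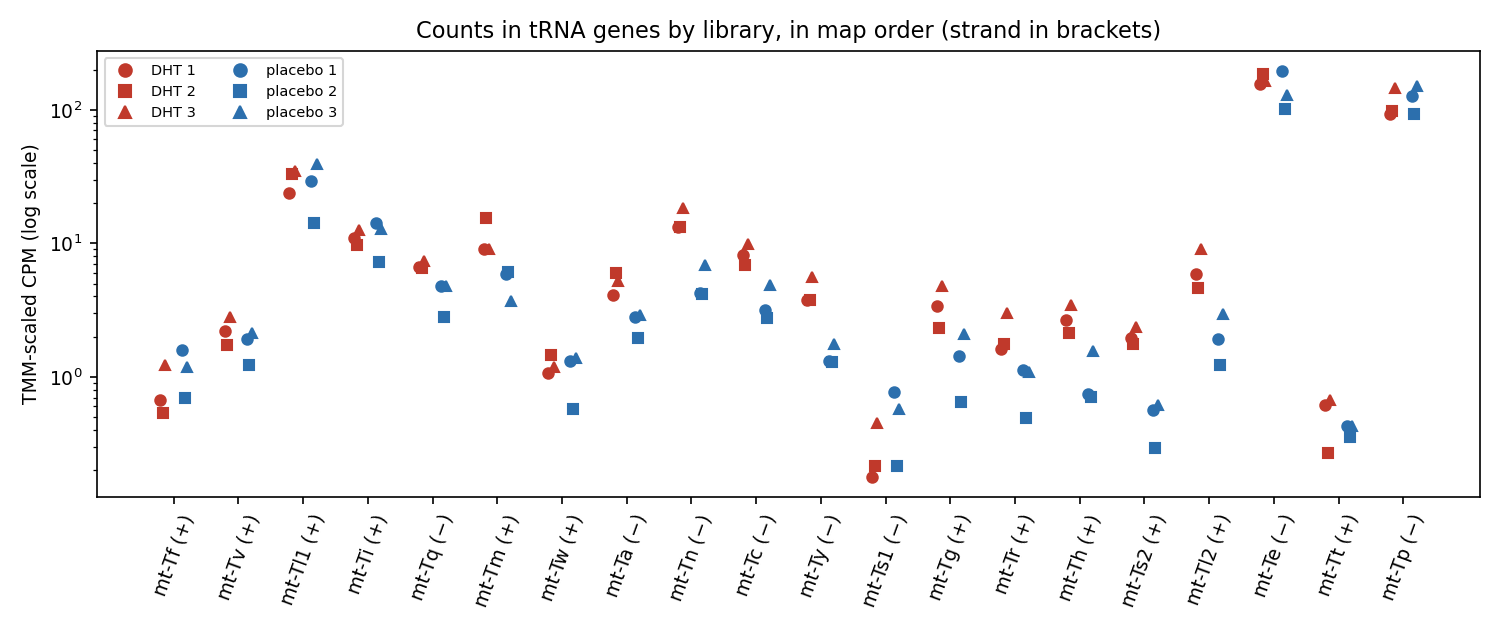
TMM-scaled CPM (y axis, log scale) on the 20 tRNA genes tested, in map order with their strand (x axis), a point per library, DHT left of placebo. The points separate in the run from mt-Ta to mt-Ty and in mt-Ts2 (1.77 to 2.37 in DHT, 0.296 to 0.617 in placebo), and overlap in mt-Tl1, mt-Te and mt-Tp.

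Library size and the MT total drop out of the split of MT counts among the genes. This split was also compared. The 8 most counted genes held 99.1% to 99.6% of MT counts in every library. mt-Nd5 took 9.30%, 9.63% and 8.74% of MT counts in DHT 1, 2 and 3, against 4.45%, 7.79% and 5.08% in placebo 1, 2 and 3. mt-Nd1 took 11.02%, 10.6% and 9.54% in DHT, against 15.1%, 11.2% and 13.6% in placebo. Both separated the groups, in opposite directions. Of the 33 genes with at least 10 counts in every library, 9 separated them, 6 with the higher share in DHT (mt-Nd5, mt-Nd2, mt-Atp8, mt-Nd4l, mt-Tm and mt-Ts2) and 3 with the lower (mt-Nd1, mt-Co2 and mt-Atp6). For each the exact two-sided permutation test gave p = 0.1, the smallest that 3 against 3 allows (Benjamini-Hochberg adjusted p = 0.367 over 33 genes). Without placebo 2 the count was 15 and without placebo 3 it was 19. Groups with fewer libraries separate more readily, so these counts cannot be set against the 9. The shares add up to one total and are linked, and no share over all genes was computed for this measure. mt-Co1 took 33.0 ± 2.67% in DHT and 33.4 ± 6.11% in placebo, and mt-Cytb took 22.4 ± 0.53% and 22.05 ± 3.17% (SD, n = 3 each).

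The groups overlapped in the ratio of mt-Nd6 to the other mRNAs and in the tRNA share. mt-Nd6 amounted to 4.07%, 4.09% and 3.62% of the counts of the 12 plus-strand mRNAs in DHT 1, 2 and 3, against 5.03%, 3.74% and 4.97% in placebo 1, 2 and 3, with p = 0.3 by the exact two-sided permutation test (n = 3 each). Without placebo 2 the difference of -0.66 percentage points became -1.08. The 22 tRNA genes together held 0.563%, 0.506% and 0.598% of MT counts in DHT and 0.564%, 0.463% and 1.06% in placebo, with p = 0.8 by that exact test. Placebo 3 stood apart in this measure, and without it the difference of -0.14 percentage points turned to 0.04.

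No nuclear gene listed for making, processing or translating mitochondrial RNA passed the test. Over all nuclear lists, 1 of 209 tested genes was called by edgeR, against 1.65% of all genes. DESeq2 called 6 (7.03% of all genes), limma voom 5 (4.67%), and edgeR without placebo 3 called 6 (5.54%). Of 19 tested genes of mitochondrial transcription and genome maintenance, 0 rose and 0 fell (median log2 fold change 0.01, against -0.02 for all genes tested). In this list, Mgme1, a mitochondrial DNA exonuclease gene, had 0.62 ± 0.24 and Tfb1m, an rRNA methyltransferase gene, had -0.65 ± 0.35 (edgeR adjusted p = 0.255 and 0.402). Of 30 genes of mitochondrial RNA processing, stability and decay, 0 rose and 0 fell, with a median of -0.07. Its members with the smallest p were Angel2 (-0.48 ± 0.21) and Pde12, which removes poly(A) tails (0.49 ± 0.24), both at edgeR adjusted p of 0.314 or more. Among 14 translation factors and 29 tRNA synthetases and modifiers, 0 rose and 0 fell, with medians of 0.06 and 0.05. Gfm1 and Gfm2, elongation and recycling factor genes of the mitochondrial ribosome, had 0.70 ± 0.29 and 0.52 ± 0.23, and Gtpbp3 and Cdk5rap1, tRNA modification genes, had -0.80 ± 0.27 and -0.67 ± 0.25 (edgeR adjusted p from 0.209 to 0.314). At an unadjusted p under 0.05, these 4 lists held 1, 0, 1 and 0 genes higher and 0, 0, 0 and 5 lower, against 7.40% and 8.52% of all genes, and the replicate block and edgeR called none of their genes.

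Of 14 biogenesis regulators tested, 0 rose and 0 fell (median -0.20), and 1 was lower at an unadjusted p under 0.05, against 8.52% of all genes. Myc, a growth factor-induced transcription factor gene, had -2.58 ± 0.64 (edgeR adjusted p = 0.105, and 1.88e-09 with the replicate block). Ppargc1a, which encodes the coactivator PGC-1α, had -0.77 ± 0.35 (edgeR adjusted p = 0.335). It passed in 1 of 15 alternatives, an edgeR fit with 1 library left out (adjusted p = 0.0341). Its TMM-scaled CPM was 5.62, 6.95 and 4.68 in DHT 1, 2 and 3 and 11.9, 12.1 and 5.51 in placebo 1, 2 and 3, so the groups overlapped through placebo 3. Of 20 genes of mitochondrial stress and quality control, 1 rose and 0 fell, against 0.952% and 0.701% of all genes, with a median of -0.05. With the replicate block 3 rose and 1 fell, against 5.44% and 5.28% of all genes. Clpx, the unfoldase gene of the mitochondrial ClpXP protease, had 224, 193 and 253 TMM-scaled CPM in DHT 1, 2 and 3 and 37.8, 59.4 and 61.4 in placebo 1, 2 and 3. It was higher in every DHT library, with a log2 fold change of 2.08 ± 0.29 (edgeR adjusted p = 0.0133), and lost its call without DHT 1, DHT 2, placebo 1 or placebo 2 (up to 0.0599). Atf5, a transcription factor gene of the mitochondrial unfolded protein response, had 1.58 ± 0.36 (edgeR adjusted p = 0.082, and 8.32e-05 with the replicate block). In the list of nuclear-retained RNAs, 0 of 5 tested genes were called, and Snhg11 and Neat1 had 3.69 ± 1.13 and 1.74 ± 0.59 (edgeR adjusted p = 0.174 and 0.216, and 0.0392 and 0.109 with the replicate block).

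The nuclear partners of the mitochondrial subunits had medians below 0 in this comparison, and placebo 3 weighed on them. Of 78 nuclear genes tested in the lists of the 5 complexes, placebo 3 was the highest of the 6 libraries in 72, and the groups overlapped in 68. The other 10 were lower in DHT without overlap, against 10.9% of all genes. All are called subunits here, but the ATP synthase list includes the inhibitor gene Atpif1 and the complex IV list the supercomplex factor gene Cox7a2l. The share of all genes with placebo 3 highest was not counted. In complex I, the 7 MT genes had a median log2 fold change of 0.52, while 36 nuclear subunits had a median of -0.64, with 2 of 36 above 0. In complex III the value was 0.42 for mt-Cytb, and the median was -0.54 over 9 nuclear subunits. In complex IV the medians were 0.01 over 3 MT genes and -0.59 over 12 nuclear ones. In the ATP synthase they were 0.40 over 2 MT genes and -0.69 over 17 nuclear ones. Complex II, which has no mitochondrially encoded subunit, had a median of -0.40 over 4 genes. Of the 78 subunits 75 lay below 0, while 48.1% of all genes lay above 0. Without placebo 3, 57 lay below 0, and the medians were -0.13 for complex I, -0.09 for complex III, -0.04 for complex IV, -0.23 for the ATP synthase and -0.12 for complex II. None of the 78 was called by edgeR without the replicate block, with or without placebo 3, and 6 were lower at an unadjusted p under 0.05, near the 8.52% of all genes that were. The difference in sign from the MT genes was not tested.

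Those with the smallest p in each complex had the following values, none of which passed. Ndufa12 and Ndufb10, accessory subunits of complex I, had log2 fold changes of -0.76 ± 0.29 and -0.80 ± 0.32, and Uqcrh and Uqcr11 of complex III had -1.26 ± 0.56 and -0.86 ± 0.47. Cox7a2l, a factor of respiratory supercomplexes, and Cox4i1 of complex IV had -0.70 ± 0.31 and -0.75 ± 0.46. Atp5g1, a gene of the ATP synthase c-ring, and Atpif1, which encodes an inhibitor of that enzyme, had -0.83 ± 0.25 and -1.32 ± 0.43, and Sdhd and Sdhb of complex II had -0.82 ± 0.48 and -0.52 ± 0.32. Their edgeR adjusted p-values ran from 0.173 to 0.463. With the replicate block Uqcrh and Atpif1 passed (adjusted p = 0.0259 and 0.00303). Uqcrh had 119, 112 and 194 TMM-scaled CPM in DHT 1, 2 and 3 and 221, 142 and 654 in placebo 1, 2 and 3. Placebo 3 likewise stood at 475 for Uqcr11, against 197 and 127 in placebo 1 and 2, at 1256 for Cox4i1, against 485 and 383, and at 619 for Sdhd, against 185 and 213. Without placebo 3 the log2 fold changes were -0.36 for Uqcrh, -0.15 for Uqcr11, -0.05 for Cox4i1, -0.06 for Sdhd, -0.17 for Sdhb, -0.44 for Ndufa12, -0.44 for Ndufb10, -0.36 for Cox7a2l, -0.69 for Atp5g1 and -0.72 for Atpif1.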

How the data were processed

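The deposited files are 6 tables of raw gene counts made by the authors, 1 per liver library, with gene, position, strand and exon length. The submitters' processing notes list Trimmomatic 0.36, STAR 2.5.2b, featureCounts and Subread 1.5.2, with GRCm38 as build. Neither the strand setting nor the counting of reads that map to several places is given in the sources used. Without strand, reads of a gene and of antisense RNA cannot be told apart.

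Groups come from the treatment label. DHT was compared with placebo (n = 3 each) in R 4.3.3 with edgeR 4.0.16: filterByExpr by group, TMM scaling, glmQLFit with robust fitting and glmQLFTest over 15126 genes, Benjamini-Hochberg adjusted, called under 0.05. The SE is the log2 fold change over the square root of F. Shares and ratios were tested by exact permutation of the libraries. Code was tested on simulated data. Alternatives used limma 3.58.1, DESeq2 1.42.0, other scalings and filters, and leaving out libraries. Nuclear copies were found with BLAST 2.17.0 in GENCODE M21 transcripts. The limit at 3 counts covers counting error only.

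The replicate numbers are shared by the titles of both groups, which do not say what they mark. Deviations from group means over the genes tested correlated at 0.31, 0.20 and 0.64 between DHT and placebo libraries numbered 1, 2 and 3, so a fit with the number as a block is given where it changes a call. DHT 1 correlated more with placebo 2 (0.49) than with placebo 1, and DHT 2 more with placebo 1 (0.32) than with placebo 2. Only the libraries numbered 3 correlated best with each other, so the numbers may not mark pairs.

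Members and lists were chosen with earlier results of these data known. Named genes are all 13 mRNA genes, the 4 most counted tRNA genes, and of each nuclear list the called genes or the 2 with the smallest p. The planned mRNA to rRNA ratio was not computed, as the rRNA genes are not analysed here.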

Additional observations from a re-analysis of the deposited data

How the results depend on the processing

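The count of called members, 1, was 0 with DESeq2 size factors in edgeR and with a filter at 1 CPM, 4 with library size alone and with no low-count filter, 12 with the replicate block, 9 with DESeq2, 7 with limma voom, 3 without placebo 3 and DHT 3 together, and 0 to 7 when 1 library was left out. Calls over all genes, 250, numbered 521 with no low-count filter, 1621 with the replicate block, 1062 with DESeq2, 707 with limma voom, 448 without both libraries numbered 3, and 84 to 862 with 1 library left out. Calls in the nuclear lists, 1, numbered 2, 8, 6, 5 and 4 in the same settings, and 0 to 6 with 1 left out. Genes whose share of MT counts separated the groups, 9, numbered 9 to 19 with 1 library left out, and 20 moved one way in all 3 pairs under the replicate block. Both are looser criteria than separation of 3 against 3, so the higher counts are not stronger results. The tRNA share difference ran from -0.256 to 0.042 with 1 left out, and the block left the differences in MT share (2.67, exact p = 0.5) and mt-Nd6 ratio (-0.66, exact p = 0.5) as they were, where the smallest possible p is 0.25. The replicate block changed no other call of a named gene than those given with the results.

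Fold changes of 9 members changed sign. With limma voom the log2 value was -0.11 for mt-Atp6, -0.13 for mt-Co2 and -0.053 for mt-Nd1. Without both libraries numbered 3 it was -0.22 for mt-Atp6, -0.22 for mt-Co2, -0.12 for mt-Nd1 and -0.034 for mt-Nd4. mt-Co2 was also at -0.0092 with DESeq2 size factors in edgeR and with DESeq2, and -0.0059 with the 1 CPM filter. With library size alone mt-Co3 was 0.089, mt-Ti 0.14 and mt-Tp 0.053, and mt-Ti was 0.0044 with the replicate block. With 1 library left out the ranges were -0.18 to 0.48 (mt-Atp6), -0.24 to 0.45 (mt-Co2), -0.31 to 0.075 (mt-Co3), -0.16 to 0.46 (mt-Nd1), -0.069 to 0.78 (mt-Nd4), -0.30 to 0.11 (mt-Ti), -0.18 to 0.50 (mt-Tl1), -0.36 to 0.028 (mt-Tp) and -0.13 to 0.40 (mt-Tw). The cause was not tested. Of 493 fold changes of members under alternatives, 414 kept direction and side of the threshold, 40 passed it anew, 8 lost it and 31 changed sign. Depth limits mt-Ts1, mt-Tt and mt-Ts2, with 11 to 120 counts a library.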
